A study of Mus musculus with 20 samples.

Results

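The contractile apparatus of vascular smooth muscle was followed here as a set of 35 genes among the 43422 in each deposited library. The genes were grouped by their known roles, as the motor, its phosphorylation switch, the thin filament, the anchors of the filaments and the calcium and G protein control of contraction, and all 35 were found in every library. RNA had been sequenced from the abdominal aorta of 20 C57BL/6 mice (C57Bl/6NCrl in the study's methods), 5 in each of 4 groups, on day 14 of an infusion by subcutaneous osmotic pump. The groups were wild-type (WT) mice given saline, WT mice given angiotensin II (Ang II) at 1000 ng/kg per minute, Plod1-/- mice given saline and Plod1-/- mice given Ang II at the same dose. Plod1 encodes lysyl hydroxylase 1 (LH1), an enzyme that modifies collagen, and the Plod1-/- mice lack it in every tissue from conception, so that an effect in smooth muscle cells cannot be told apart from one in other cells. The labels give an age of 6 months for all mice, the study's methods describe male littermates that were younger when the pumps were implanted, and the labels do not say which infused aortas were dilated or dissected. The comparisons ask which contractile genes are lost under Ang II in both genotypes and which are lost in Plod1-/- mice but not in WT mice.

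In vascular smooth muscle, calcium bound to calmodulin activates myosin light chain kinase, which phosphorylates the regulatory light chain of smooth muscle myosin and lets the motor pull on actin filaments. Myosin phosphatase reverses this step, and intermediate filaments, dense bodies and membrane junctions pass the force to the matrix. Genes of this apparatus are the usual markers of contractile, differentiated smooth muscle cells in the wall of the aorta, and many of them are controlled by serum response factor (SRF) with its cofactor myocardin. In a bulk tissue library, fewer smooth muscle cells and less RNA of these genes per cell cannot be told apart.

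Values are FPKM, the fragments of a gene scaled to its length and to the size of the library. They are given for the mice of a group in the order of replicate number, which was taken as a name only. A gene was called lower or higher where limma on log2(FPKM + 1) gave a p-value below 0.05, adjusted over all genes tested by Benjamini-Hochberg, and its log2 fold change exceeded 1 in size. This scale understates the change of low genes. Of the 35 members, 33 passed the filter on low values in every comparison, and Pln and Casq2 did not. Plod1 was at 22.8 FPKM or more in every WT mouse and at 0.0415 FPKM or less in every Plod1-/- mouse. Of the 4 smooth muscle markers followed, Acta2, Myh11 and Cnn1 were abundant in all 20 libraries. Tagln, the remaining marker, was listed at only 1.46 to 12.2 FPKM over these libraries. Together the 35 members took between 1.46% and 9.72% of a library's summed FPKM. The libraries of replicate 5 of the saline-treated and replicate 1 of the Ang II-infused Plod1-/- mice held Xist RNA above 1 FPKM, although the methods describe male mice.

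Matched to RefSeq promoters (GRCm38.p6, 250 bases before to 50 bases after the start site), 31 of the 35 members had a sequence. Myh11, Actg2, Tagln and Nexn had none. The CArG box, the DNA element bound by SRF, was searched on both strands, which are equivalent since the consensus is its own reverse complement. An exact match was found in the promoters of 4 of the 31 members, or 12.9%, against 488 of all 27025 genes with a promoter, or 1.81%. A match is only a match of letters. Inexact matches and sequence outside this window were not counted, so a member without a match is not shown to lack the element. Both promoters listed for Ldb3 hold the same match, so that the members have 4 distinct positions. The 4 windows are shown because they are the members' matches to this element, with the CArG box in capitals, read 5′ to 3′ on the strand of the gene and ending before the start site.
Myl9, chr2:156775263-156775352, plus strand: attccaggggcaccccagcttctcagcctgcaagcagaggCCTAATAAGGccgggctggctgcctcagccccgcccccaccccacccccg
Myl6, chr10:128493010-128493099, minus strand: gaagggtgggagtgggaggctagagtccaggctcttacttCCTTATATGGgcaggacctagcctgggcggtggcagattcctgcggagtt
Cnn2, chr10:79988504-79988593, plus strand: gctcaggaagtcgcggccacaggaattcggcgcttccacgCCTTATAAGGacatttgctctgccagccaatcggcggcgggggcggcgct
Ldb3, chr14:34588682-34588756, minus strand: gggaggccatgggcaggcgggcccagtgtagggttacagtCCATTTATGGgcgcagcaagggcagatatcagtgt
The box lay 151 bases before the RefSeq start site in Myl9, 40 in Myl6, 46 in Cnn2 and 25 in Ldb3. Of these 4 genes Myl9, Myl6 and Ldb3 were called lower under Ang II in Plod1-/- mice and Cnn2 in neither genotype, as described with their roles.

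In saline-treated mice 1 member was called different between the genotypes. Acta2, the smooth muscle α-actin of the thin filament, was the most abundant member with 17399.5, 15201, 13026, 11783 and 12807 FPKM in WT mice and 15416, 12424, 17685, 16292 and 15943 FPKM in Plod1-/- mice. It was followed by Myl9, the regulatory light chain, at 3942 to 5651 FPKM in WT mice, and by Csrp1, a LIM protein of actin bundles, at 1473 to 1969 FPKM. None of the 33 tested members was called lower in Plod1-/- mice, where 0.408% of all 11999 genes were, and Jph2 was the 1 member called higher, where 0.358% of all genes were. The median log2 difference between the genotypes was 0.15 over the members and -0.01 over all genes. The 95% interval of the difference was -0.18 to 0.48 for Acta2, -0.11 to 0.46 for Myh11 and -0.12 to 0.58 for Lmod1, on the log2 scale.

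Smtn and Csrp1, 2 of the 33 members, were higher in every saline-treated Plod1-/- mouse than in every saline-treated WT mouse. This separation was found upward in 4.22% of all genes and downward in 5.3%, where 0 of the 33 members were. The upward count lies near the share of all genes. Smtn, a thin filament protein restricted to contractile smooth muscle, had 327, 336, 319, 278 and 328 FPKM in WT mice and 388, 369, 369, 418 and 459 FPKM in Plod1-/- mice. Its log2 difference of 0.33 (SE 0.09, adjusted p = 0.0543) and that of Csrp1, 0.34 (SE 0.11, adjusted p = 0.0876), did not pass the thresholds. Jph2, junctophilin, which tethers the calcium store to the cell membrane, had 27.03, 47.7, 27.5, 42.6 and 31.8 FPKM in WT mice and 44.05, 83.2, 81.1, 115 and 62.7 FPKM in Plod1-/- mice. The groups overlapped in replicate 1 of the Plod1-/- mice, and the log2 difference was 1.07 (SE 0.24, adjusted p = 0.0327). This call was lost when any one of the 5 WT mice or of Plod1-/- replicates 2 to 5 was left out, and with both Xist-positive libraries left out.

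Under Ang II the log2 fold change was below 0 for 32 of the 33 tested members in WT mice and for 33 in Plod1-/- mice, and more members passed both thresholds in Plod1-/- mice. In WT mice 8 of the 33 members were called lower and 0 higher, where 2.28% of all 11994 genes were called lower and 6.38% higher. The Plod1-/- mice had 26 of the 33 called lower and 0 higher, where 5.51% of all 12333 genes were called lower and 8.38% higher. The median log2 fold change of the members was -0.86 in WT mice and -1.62 in Plod1-/- mice, beside -0.14 and 0.05 over all genes. At the adjusted p-value alone 24 members were lower in WT mice and 28 in Plod1-/- mice, where 21.5% and 20.1% of all genes were.

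The members were not low in every infused mouse. Taken over the 35 members, the median log2 difference from the mean of the saline-treated WT mice was -1.41, -0.98, -0.67, 0.04 and -1.02 in the Ang II-infused WT mice. In the infused Plod1-/- mice it was -0.21, -1.55, -1.41, -1.96 and -2.06. WT replicate 4 was the highest mouse of its group in 32 of the 35 members and lay at or above the lowest saline-treated WT mouse in 28. Plod1-/- replicate 1 was the highest of its group in 30 members, and lay at or above the lowest saline-treated Plod1-/- mouse in 14 and below all of them in 21. Of the 33 tested members 27 had at least 4 of the 5 infused WT mice below every saline-treated WT mouse, where 30.9% of all genes had, and 30 had so in Plod1-/- mice, where 23.5% had. All 5 infused mice lay below all saline-treated ones for 7 of the 33 tested members in WT mice, where 6.88% of all genes were so separated, and for 20 in Plod1-/- mice, where 15% were.

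**Figure D1:**
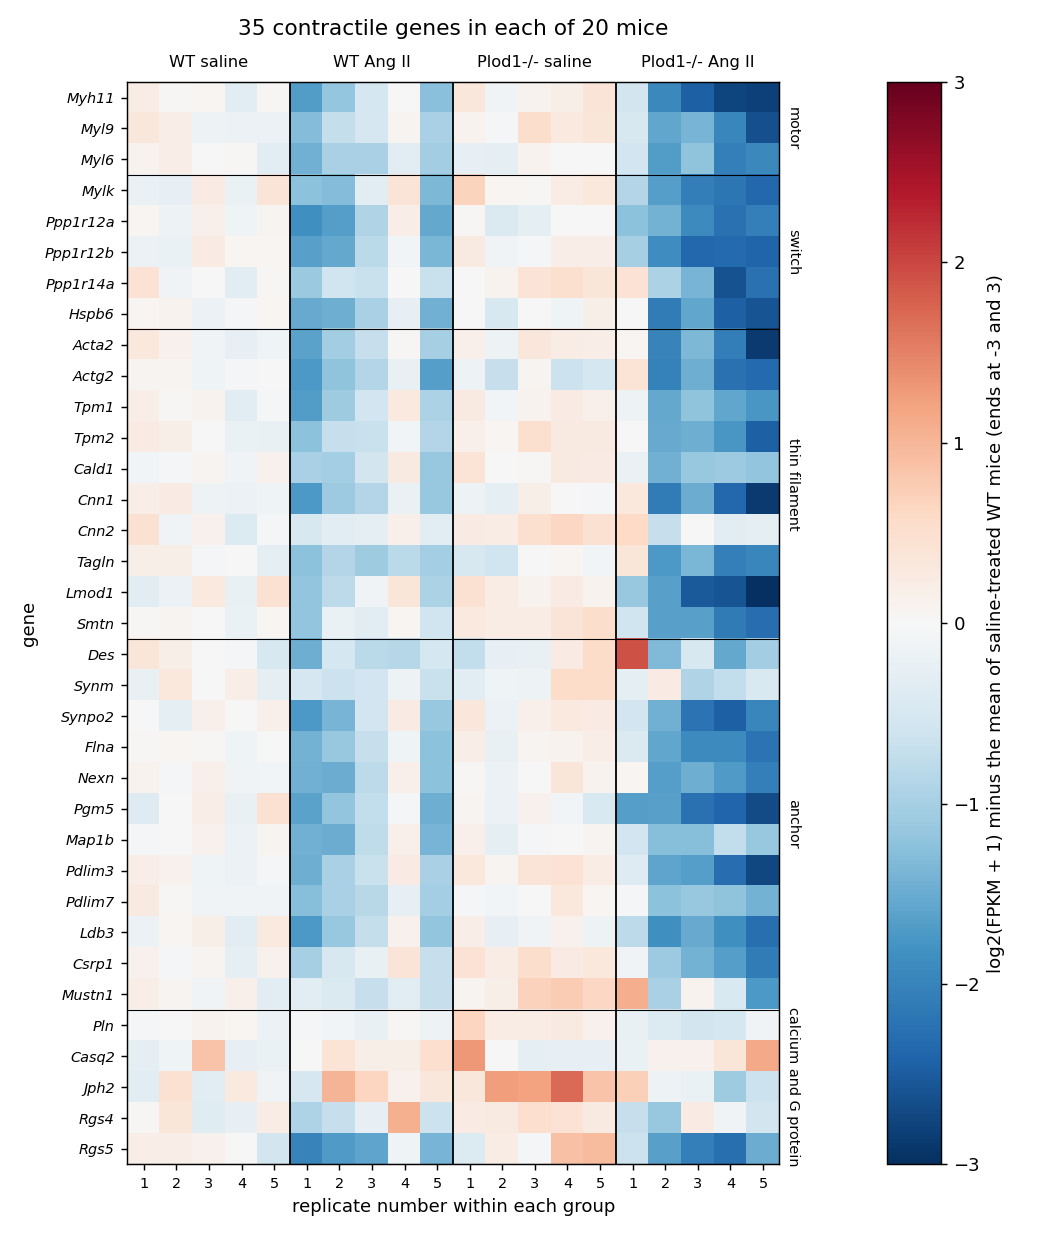
Each cell shows log2(FPKM + 1) of 1 of the 35 genes (rows, grouped by role) in 1 of the 20 mice (columns, by group and replicate number) minus the mean of the saline-treated WT mice, blue for lower and red for higher. WT replicate 4 and Plod1-/- replicate 1 are the pale columns of the Ang II-infused groups, with medians of 0.04 and -0.21.

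With WT replicate 4 left out, 20 members were called lower in WT mice, and without replicate 1, 2 or 5 the count was 2, 4 and 4. Counts over all genes are not given for these runs, so that a shift particular to the members is not shown. The count of 26 in Plod1-/- mice stayed within 1.5 times itself, whichever mouse was left out. Some other measures, but not all, also set the same mice apart. The share of summed FPKM from mitochondrial genes was 20.8%, 27.4%, 29.1%, 14.6% and 24.5% in the infused WT mice, lowest in replicate 4, beside 8.37% to 14.6% under saline, and 21.1%, 11.9%, 9.23%, 13.1% and 11.4% in the infused Plod1-/- mice, highest in replicate 1, beside 9.93% to 16.2%. The summed FPKM of 7 fat markers was 4440.5, 4959.6, 3430.4, 1132 and 3959 in the infused WT mice, lowest in replicate 4, beside 67.9 to 535 in saline-treated WT mice. In the infused Plod1-/- mice the 7 macrophage markers summed to 141, 559, 843, 618 and 413 FPKM, lowest in replicate 1, beside 18.6 to 49.00 FPKM under saline. Neutrophil markers summed to 138, 178, 694, 561 and 273 FPKM in the same mice, also lowest in replicate 1, beside 1.24 to 2.79 FPKM. All 7 fat and 7 macrophage genes were above 0 in every mouse. With mitochondrial genes left out 5 members were called lower in WT mice, and 241 of all genes were, in place of 274. The part of the other cell types in the low contractile values was not tested.

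**Figure D2:**
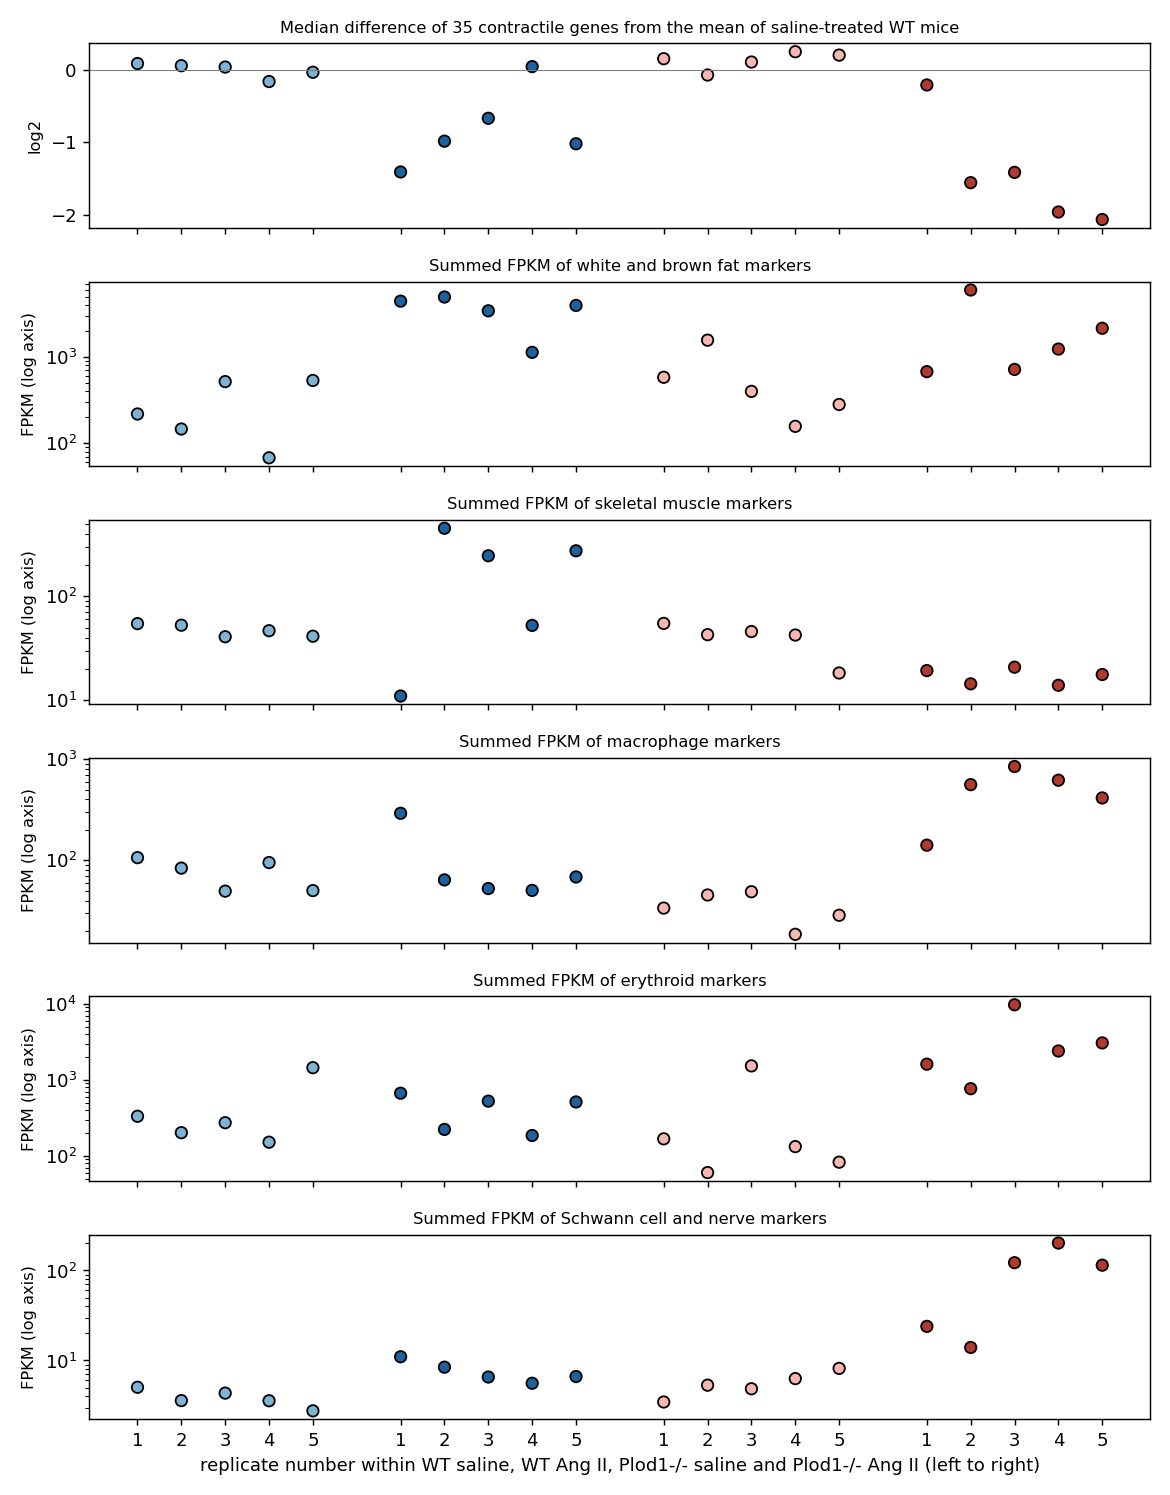
The upper panel plots, for each mouse, the median log2 difference of the 35 contractile genes from the mean of the saline-treated WT mice, and the other panels plot the summed FPKM of 5 marker lists on log axes, with mice ordered by group and replicate number. Among infused WT mice replicate 4 has the highest contractile median (0.04) and the lowest fat sum (1132), and among infused Plod1-/- mice replicate 1 has the highest contractile median (-0.21) and the lowest macrophage sum (141).

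The 3 genes of the motor were called lower in Plod1-/- mice and none of them in WT mice. Myh11, the smooth muscle myosin heavy chain, had 1353, 1191, 1213, 930.1 and 1199 FPKM in saline-treated and 363, 522, 811, 1179.9 and 489 FPKM in Ang II-infused WT mice. The Plod1-/- mice had 1479, 1087, 1247, 1314 and 1522 FPKM under saline and 801, 307, 212, 171 and 166 FPKM under Ang II. Every infused Plod1-/- mouse was below every saline-treated one, whereas in WT mice replicate 4 stayed within the saline range. Myh11 was 4.84-fold lower in infused Plod1-/- mice (log2 fold change -2.27, SE 0.39, adjusted p = 0.00104). In WT mice the log2 fold change was -0.92 (SE 0.28, adjusted p = 0.0265), short of the fold threshold, and the responses differed by -1.35 (SE 0.50, adjusted p = 0.0392).

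Myl9 went from 4846, 4371, 6430.5, 5453 and 5771 FPKM under saline to 3226, 1525, 1705, 1152 and 724 FPKM under Ang II in Plod1-/- mice, with no overlap. WT mice had 3942 to 5651 FPKM under saline and 1815, 2710.2, 3146, 4776 and 2288 FPKM under Ang II, with replicate 4 inside the saline range. The log2 fold changes were -1.85 (SE 0.36, adjusted p = 0.00199) and -0.68 (SE 0.26, adjusted p = 0.0546), and the responses differed by -1.17 (SE 0.44, adjusted p = 0.0417). Myl6, the essential light chain, which smooth muscle shares with non-muscle cells, fell by 1.402 (SE 0.27, adjusted p = 0.00206) on the log2 scale in Plod1-/- mice. In WT mice every infused mouse was below every saline-treated mouse for Myl6, 425 to 902 against 919 to 1328 FPKM, a log2 fold change of -0.95 (SE 0.20, adjusted p = 0.00558). Its responses were not called different (-0.45, SE 0.34, adjusted p = 0.304).

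All 5 genes of the phosphorylation switch were called lower in Plod1-/- mice, and 3 of them also in WT mice. Mylk, the myosin light chain kinase, had 119, 115, 160.4, 118 and 179 FPKM in saline-treated and 57.4, 54.9, 106, 179 and 52.9 FPKM in infused WT mice. The Plod1-/- mice had 217, 141, 139.8, 157 and 169.9 FPKM under saline and 73.2, 42.2, 31.6, 29.3 and 25.8 FPKM under Ang II. The Plod1-/- groups did not overlap, and in WT mice replicate 4 was at the top of the saline range. Mylk fell 4.25-fold in Plod1-/- mice (log2 fold change -2.09, SE 0.26, adjusted p = 0.000188), had a log2 fold change of -0.76 (SE 0.32, adjusted p = 0.0748) in WT mice, and the responses differed by -1.32 (SE 0.44, adjusted p = 0.0229).

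Both targeting subunits of myosin phosphatase fell in both genotypes. Ppp1r12b, a targeting subunit of myosin phosphatase, had 52.1, 51.8, 69.98, 61.9 and 62.1 FPKM in saline-treated and 18.4, 19.7, 33.6, 56.3 and 22.3 FPKM in infused WT mice. Its values in Plod1-/- mice were 71.6, 54.9, 57.9, 68.01 and 67.9 FPKM under saline and 29.04, 15.5, 10.7, 10.9 and 10.4 FPKM under Ang II. Ppp1r12b was called lower in WT mice, with a log2 fold change of -1.08 (SE 0.26, adjusted p = 0.0111), and lower still in Plod1-/- mice, with -2.097 (SE 0.25, adjusted p = 0.000147). The difference of -1.01 (SE 0.38, adjusted p = 0.0442) passed the thresholds, but its call was kept in only 14 of 29 alternative settings. Ppp1r12a, the other targeting subunit, fell in both genotypes, with log2 fold changes of -1.15 (SE 0.32, adjusted p = 0.0199) in WT and -1.63 (SE 0.20, adjusted p = 0.000157) in Plod1-/- mice. Its infused mice were at 14.97, 17.2, 29.8, 64.4 and 18.8 FPKM in WT and 23.4, 20.5, 14.3, 11.2 and 12.7 FPKM in Plod1-/-, from 50.3 to 63.2 and 41.3 to 58.2 FPKM under saline. The Plod1-/- groups did not overlap, WT replicate 4 was above all saline-treated WT mice, and the difference of the responses, -0.48 (SE 0.40, adjusted p = 0.358), was not called.

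Hspb6, the small heat shock protein HSP20 linked to relaxation, had 53.6, 55.9, 78.5, 130.3 and 57.03 FPKM in infused WT mice, all below the 138 to 166 FPKM of saline-treated ones, including replicate 4. In Plod1-/- mice it had 157, 111, 156, 142 and 175 FPKM under saline and 157, 35.3, 51.96, 27.5 and 24.9 FPKM under Ang II, where replicate 1 alone was at the saline level. Hspb6 was called lower in both, with log2 fold changes of -1.13 (SE 0.22, adjusted p = 0.00448) in WT and -1.66 (SE 0.43, adjusted p = 0.0101) in Plod1-/- mice. Ppp1r14a, the phosphatase inhibitor CPI-17, was at 304, 116, 85.7, 36.1 and 47.5 FPKM in infused Plod1-/- mice against 228 to 314 FPKM under saline, again with replicate 1 at the saline level. It was called lower there (-1.62, SE 0.48, adjusted p = 0.0189) and had a log2 fold change of -0.61 (SE 0.21, adjusted p = 0.0379) in WT mice, and its difference of -1.01 (SE 0.54, adjusted p = 0.147) was not called.

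**Figure D3:**
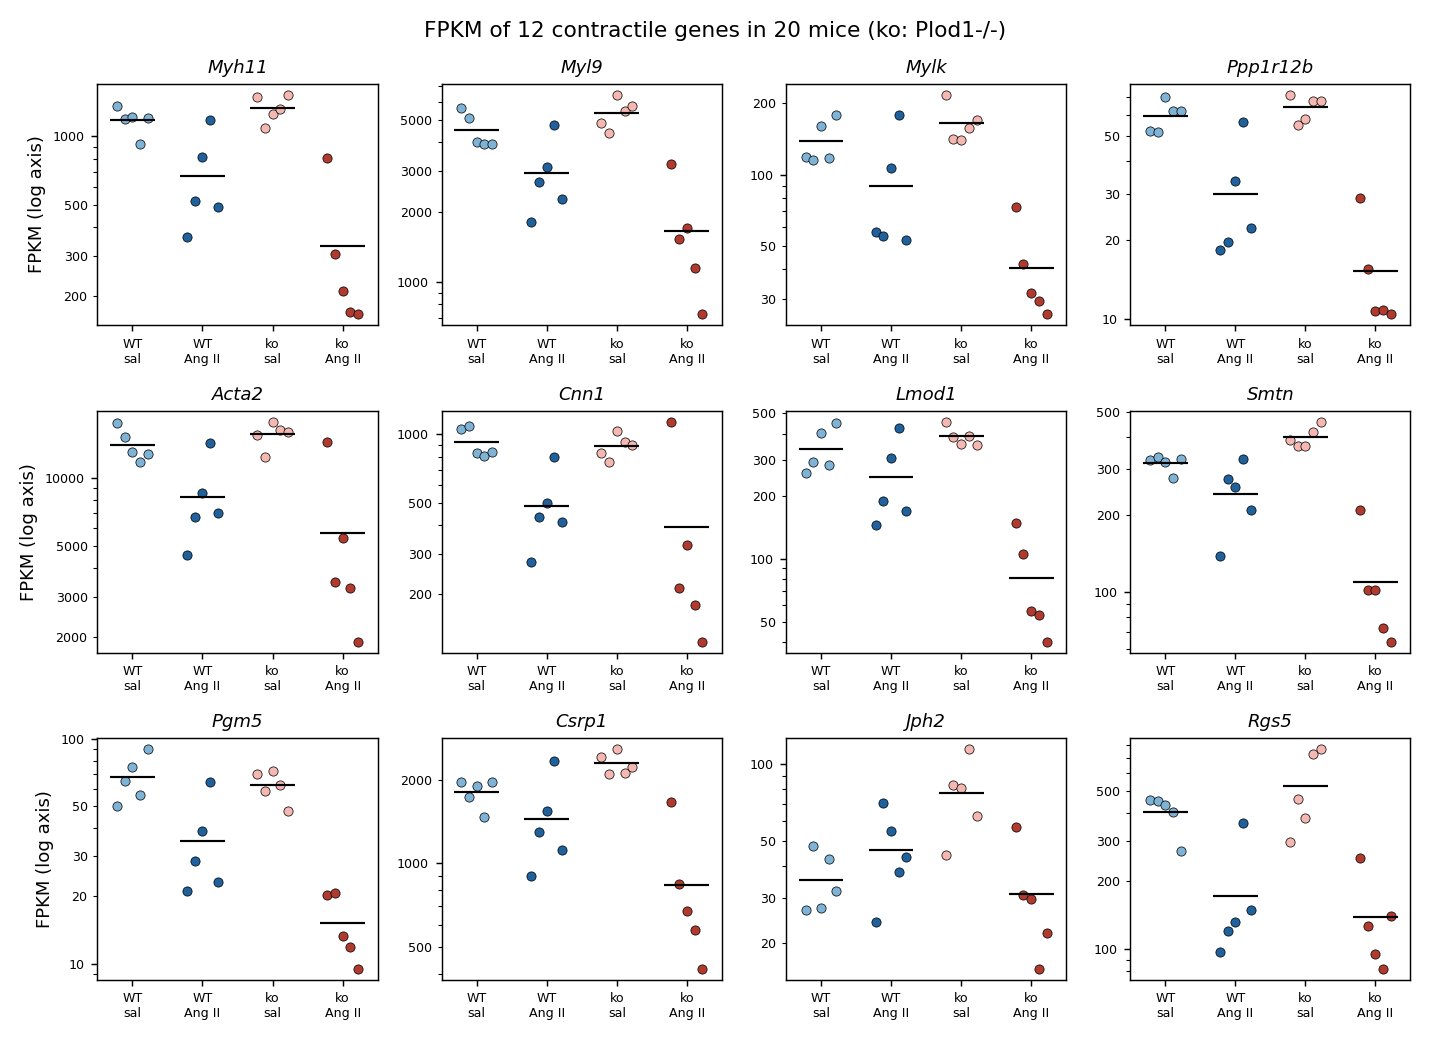
Points are the FPKM of single mice on log axes for 12 members in WT and Plod1-/- (ko) mice given saline (sal) or Ang II, in replicate order within a group, and lines are group means. The infused Plod1-/- mice are all below the saline-treated Plod1-/- mice for Myh11, Mylk, Ppp1r12b, Lmod1, Smtn, Pgm5 and Csrp1, while for Acta2 and Cnn1 replicate 1 lies within their range or above it.

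Of the 10 thin filament genes 8 were called lower in Plod1-/- mice and 3, Actg2, Cnn1 and Tagln, in WT mice. Acta2 had 4582, 6712, 8599, 14302 and 6989 FPKM in infused WT mice and 14456, 3470.0, 5460.0, 3276 and 1901 FPKM in infused Plod1-/- mice. In each genotype 4 of the 5 infused mice were below all saline-treated mice, and the remaining mouse, WT replicate 4 or Plod1-/- replicate 1, was at the saline level. Acta2 was called lower in Plod1-/- mice, with a log2 fold change of -1.802 (SE 0.48, adjusted p = 0.0118), and stayed short of the fold threshold in WT mice, with -0.86 (SE 0.29, adjusted p = 0.0388). The difference of the responses was -0.94 (SE 0.55, adjusted p = 0.186), with a 95% interval of -2.102 to 0.22. Without Plod1-/- replicate 1 Acta2 was counted among the genes called lower in Plod1-/- mice only, and without WT replicate 4 it was counted as lost in both.

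Lmod1, leiomodin, which starts and elongates actin filaments, had the largest fall of any member in Plod1-/- mice and the largest difference between genotypes. Its values were 259, 292, 402, 282 and 451 FPKM in saline-treated and 145, 190.4, 306, 425 and 169 FPKM in infused WT mice. They were 456, 385, 357, 389.9 and 353 FPKM in saline-treated and 149, 106, 56.2, 54.03 and 40.03 FPKM in infused Plod1-/- mice. Each infused Plod1-/- mouse, replicate 1 included, was far below the saline range, whereas WT replicates 3 and 4 were inside theirs. Lmod1 fell 5.31-fold in Plod1-/- mice (log2 fold change -2.41, SE 0.32, adjusted p = 0.000251) and changed by -0.53 in WT mice, short of both thresholds (adjusted p = 0.157). The responses differed by -1.88 (SE 0.45, adjusted p = 0.0038), and Lmod1 was also called lower in infused Plod1-/- than in infused WT mice (-1.65, SE 0.40, adjusted p = 0.012).

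Smtn had 138, 275, 256, 329 and 208 FPKM in infused WT mice and 208, 101, 102, 72.4 and 64.1 FPKM in infused Plod1-/- mice. Every infused Plod1-/- mouse was below every saline-treated mouse of either genotype, and in WT mice replicate 4 was at the saline level. Smtn fell 3.96-fold in Plod1-/- mice (log2 fold change -1.99, SE 0.27, adjusted p = 0.000325), had -0.45 (SE 0.21, adjusted p = 0.0991) in WT mice, and the responses differed by -1.54 (SE 0.35, adjusted p = 0.00293). Its level under Ang II was lower in Plod1-/- than in WT mice, with a log2 difference of -1.203 (SE 0.33, adjusted p = 0.0196).

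Cnn1, calponin 1, which binds actin and restrains the motor, had 276, 433, 501, 797 and 415 FPKM in infused WT mice, all below the 806 to 1089 FPKM of saline-treated ones. In infused Plod1-/- mice it had 1135, 213, 328, 179 and 124 FPKM against 757 to 1037 FPKM under saline, and replicate 1 exceeded all saline-treated mice. Cnn1 was called lower in both genotypes, with log2 fold changes of -1.004 (SE 0.24, adjusted p = 0.0109) and -1.65 (SE 0.49, adjusted p = 0.0203). Actg2, the enteric smooth muscle γ-actin, had the reverse pattern of calls. It was at 104, 149, 184, 291 and 108 FPKM in infused WT mice, all below the 311 to 363 FPKM of saline-treated ones, and was called lower there (-1.14, SE 0.25, adjusted p = 0.00692). Infused Plod1-/- mice had 455, 82.6, 124, 71.5 and 66.8 FPKM against 213 to 361 FPKM under saline, and with replicate 1 the highest of all, the log2 fold change of -1.15 (SE 0.47, adjusted p = 0.07) was not called. The responses of Actg2 differed by -0.01 (SE 0.56, adjusted p = 0.991), with a 95% interval of -1.17 to 1.15.

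Tpm1 and Tpm2, the muscle tropomyosins, and Cald1, caldesmon, fell in Plod1-/- mice, with log2 fold changes of -1.38 (SE 0.27, adjusted p = 0.00224), -1.68 (SE 0.37, adjusted p = 0.00422) and -1.203 (SE 0.21, adjusted p = 0.00119), with no overlap between the groups in that genotype. In WT mice their log2 fold changes were -0.79, -0.71 and -0.68, short of the fold threshold. Tagln, transgelin, was listed at only 7.47 to 10.6 FPKM in saline-treated WT mice, and its exons share 1241 bases with an antisense gene, Gm48529, listed at up to 13.4 FPKM. Since the libraries do not mark strand, the value of Tagln is uncertain. It was called lower in WT (-1.001, SE 0.12, adjusted p = 0.00181) and in Plod1-/- mice (-1.12, SE 0.41, adjusted p = 0.0458), but in Plod1-/- mice this held in only 9 of 20 alternative settings. Cnn2, calponin 2, which is not restricted to muscle, was called in neither genotype, with log2 fold changes of -0.26 and -0.55. In Plod1-/- mice the FPKM range of Tpm1 was 299.9 to 378 under saline and 92.9 to 286 under Ang II, and that of Tpm2 was 944 to 1269 under saline and 164 to 901 under Ang II. Cald1 ranged over 92.2 to 125 under saline and 33.97 to 81.5 under Ang II, and Cnn2 over 183 to 241 under saline and 96.1 to 237 under Ang II. Of these 4 only the groups of Cnn2 overlapped.

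Of the 12 anchor genes 8 were called lower in Plod1-/- mice and 1, Pgm5, in WT mice. Pgm5, aciculin, a protein of actin-based cell junctions, had 50.1, 65.00, 75.3, 56.3 and 90.1 FPKM in saline-treated and 20.98, 28.6, 38.9, 64.2 and 23.1 FPKM in infused WT mice. The values in Plod1-/- mice were 69.9, 58.7, 72.2, 62.5 and 47.95 FPKM and 20.2, 20.7, 13.2, 11.9 and 9.48 FPKM. Every infused Plod1-/- mouse was below every mouse of the other 3 groups. Pgm5 was the only member for which infused Plod1-/- and infused WT mice did not overlap. This separation was found downward in 4.62% of all genes, and 1 of the 33 tested members is no more than that share. The log2 fold change was -1.01 (SE 0.28, adjusted p = 0.0184) in WT and -2.02 (SE 0.21, adjusted p = 7.52e-05) in Plod1-/- mice, with a difference of -1.01 (SE 0.37, adjusted p = 0.0383). Between the infused genotypes the log2 difference of Pgm5 was -1.11 (SE 0.31, adjusted p = 0.0223). The call for the difference of its responses was kept in 14 of 29 alternative settings, and that between the infused genotypes in 13 of 20.

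Csrp1 had 902, 1291, 1547, 2341 and 1113 FPKM in infused WT mice against 1473 to 1969 FPKM under saline, with replicate 4 above all saline-treated mice and replicate 3 inside their range. In Plod1-/- mice it went from 2421, 2089, 2580.4, 2122 and 2225 FPKM to 1667, 838, 674, 574 and 416 FPKM with no overlap. The log2 fold changes were -0.398 (SE 0.24, adjusted p = 0.195) in WT and -1.62 (SE 0.32, adjusted p = 0.00246) in Plod1-/- mice, and they differed by -1.22 (SE 0.41, adjusted p = 0.0242). Pdlim3, a PDZ and LIM protein of dense bodies and Z-discs, fell by 2.01 (SE 0.36, adjusted p = 0.00128) on the log2 scale in Plod1-/- mice, where all infused mice (76.1, 32.6, 31.2, 19.8 and 14.2 FPKM) were below all saline-treated ones (105 to 135 FPKM). WT mice had 35.6, 49.99, 62.4, 118 and 50.2 FPKM under Ang II against 88.9 to 115 FPKM under saline, with replicate 4 the highest mouse of both groups. The Pdlim3 responses differed by -1.24 (SE 0.46, adjusted p = 0.0416).

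The other LIM proteins Pdlim7 and Ldb3, the actin cross-linker Flna (filamin A), the actin-binding Nexn (nexilin) and the actin-bundling Synpo2 (myopodin) were called lower in Plod1-/- mice and not in WT mice, and none of the 5 differences was called. Synpo2 had the largest fall of these, -1.896 (SE 0.31, adjusted p = 0.000842), against -0.92 (SE 0.31, adjusted p = 0.0354) in WT mice, and Pdlim7 the smallest, -1.06 (SE 0.24, adjusted p = 0.00485), against -0.87 (SE 0.18, adjusted p = 0.00552). Flna, the most abundant of them, was at 461, 556, 764, 1114 and 521 FPKM in infused WT and 911, 413, 327, 323 and 261 FPKM in infused Plod1-/- mice, from 1113 to 1271 and 1053 to 1406 FPKM under saline. In Plod1-/- mice Synpo2 ranged over 33.6 to 48.9 under saline and 6.19 to 25.6 under Ang II (FPKM) and Ldb3 over 25.4 to 35.3 under saline and 5.54 to 17.2 under Ang II, without overlap. Nexn ranged over 38.5 to 56.1 under saline and 9.69 to 45.3 under Ang II and Pdlim7 over 152 to 199.7 under saline and 58.9 to 157 under Ang II, with replicate 1 of the infused mice inside the saline range.

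Des, Synm, Map1b and Mustn1 were called in neither genotype. Des, desmin, the intermediate filament of muscle, had 78.2, 68.03, 59.6, 58.6 and 43.4 FPKM in saline-treated and 21.2, 41.3, 33.9, 32.7 and 41.7 FPKM in infused WT mice, a complete separation with a log2 fold change of -0.84 (SE 0.20, adjusted p = 0.01). In infused Plod1-/- mice it had 229.6, 23.4, 43.2, 20.2 and 28.96 FPKM against 36.1, 50.5, 51.4, 72.5 and 88.9 FPKM under saline. Replicate 1 held more than all other mice, and the log2 fold change was -0.41 (SE 0.58, adjusted p = 0.597). Synm, synemin, a partner of desmin, had -0.51 and -0.53, and Mustn1, a small nuclear protein of muscle, had -0.49 and -0.86, in WT and Plod1-/- mice. The Plod1-/- mice had 6.12 to 12.1 under saline and 3.805 to 9.502 under Ang II for Synm and 235 to 376 under saline and 66.3 to 472 under Ang II for Mustn1, in FPKM, and the groups overlapped. Map1b, a microtubule protein also abundant in nerve, was lower at the adjusted p-value in both genotypes, by nearly equal amounts, -0.98 (SE 0.28, adjusted p = 0.0194) and -0.98 (SE 0.16, adjusted p = 0.000778), just short of the fold threshold. Schwann cell and nerve markers summed to 13.9 to 202 FPKM in infused Plod1-/- mice and 3.46 to 8.17 FPKM under saline, and their part in the Map1b values was not tested.

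**Figure D4:**
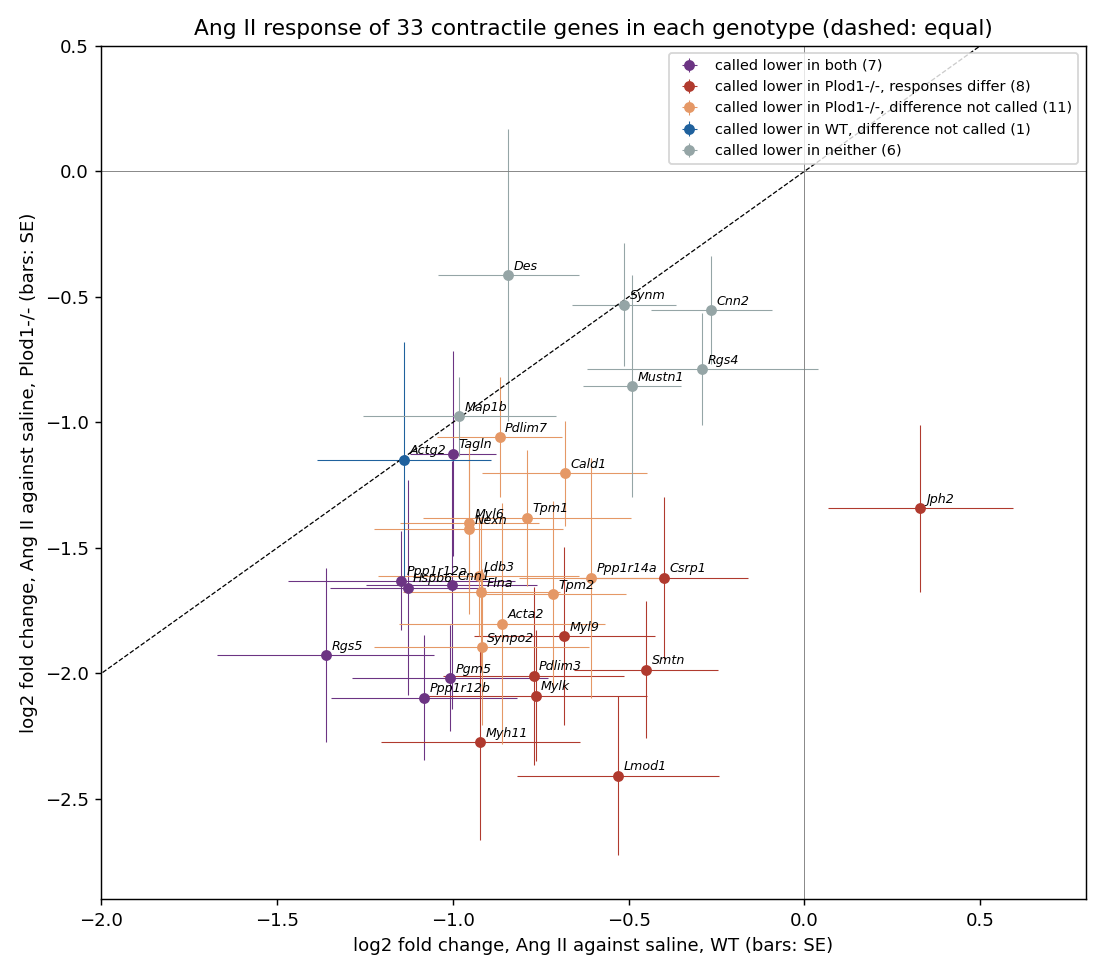
Points are the 33 tested members, with the log2 fold change of Ang II against saline in WT mice across and in Plod1-/- mice upward, bars for 1 SE and colours for the calls. Most points lie below the dashed line of equal responses, Lmod1, Jph2 and Smtn farthest from it (by 1.88, 1.67 and 1.54), and Des and Map1b are the 2 above it.

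In the calcium and G protein group the 5 members behaved differently from each other. Rgs5, a regulator that turns off G protein signals and marks pericytes as well as arterial smooth muscle, had 455, 451, 434, 402 and 271 FPKM in saline-treated and 97.9, 121, 132, 362 and 149.9 FPKM in infused WT mice. In Plod1-/- mice it had 298, 459, 379, 729 and 767 FPKM under saline and 252.2, 127, 95.1, 82.2 and 140.2 FPKM under Ang II, with no overlap. Rgs5 had the largest fall of any member in WT mice, 2.57-fold with a log2 fold change of -1.36 (SE 0.31, adjusted p = 0.00818), and fell 3.80-fold in Plod1-/- mice, -1.93 (SE 0.35, adjusted p = 0.00136). The 3 pericyte markers summed to 26.4 to 41.3 FPKM in infused and 50.6 to 69.6 FPKM in saline-treated Plod1-/- mice, and their part was not tested. Rgs4, a related regulator, was called in neither genotype (-0.29 and -0.79), although its Plod1-/- groups did not overlap, with 26.6 to 31.7 under saline and 9.57 to 26.5 under Ang II FPKM.

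Jph2 was the 1 tested member whose log2 fold change under Ang II was above 0 in WT mice. It had 24.2, 70.7, 54.7, 38.01 and 43.5 FPKM in infused WT mice, 4 of which were within or above the saline range, and 56.8, 30.9, 29.8, 15.8 and 21.8 FPKM in infused Plod1-/- mice, where replicate 1 was within the saline range. The log2 fold change was 0.33 (SE 0.26, adjusted p = 0.326) in WT and -1.34 (SE 0.33, adjusted p = 0.008) in Plod1-/- mice, and the difference was -1.67 (SE 0.45, adjusted p = 0.0075). Infused WT replicates 2, 3 and 5, in which Jph2 was highest, also held skeletal muscle RNA, with 451, 245 and 274 FPKM summed over 14 markers against 40.8 to 54.6 FPKM in saline-treated WT mice. Jph2 is expressed in striated muscle too, and the part of that RNA was not tested. The saline-treated Plod1-/- mice, from which the fall was measured, were themselves high in Jph2, with a mean of 77.2 FPKM against 35.3 FPKM in saline-treated WT mice. The mean of the infused Plod1-/- mice was 31.0 FPKM and that of the infused WT mice 46.2 FPKM. Jph2 was not called different between the infused genotypes.

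Pln, phospholamban, which restrains the calcium pump, was at 0.644, 0.697, 0.815, 0.755 and 0.483 FPKM in saline-treated WT mice and 1.61, 0.952, 0.966, 1.02 and 0.8404 FPKM in saline-treated Plod1-/- mice, with no overlap (two-sided exact permutation test, p = 0.00794, the smallest that 5 mice against 5 can give). Infused Plod1-/- mice had 0.446, 0.268, 0.1502, 0.169 and 0.566 FPKM, all below the saline-treated ones (p = 0.00794, same exact test), and infused WT mice had 0.614, 0.591, 0.431, 0.7200 and 0.513 FPKM (p = 0.214, same exact test against saline). All but 2 of these values are below 1 FPKM. Exons of Pln share 1644 bases with Gm47644, listed at up to 0.354 FPKM, and 141 bases with Cep85l, listed at up to 1.79 FPKM, both on the other strand. Casq2, calsequestrin 2, which buffers calcium in the store of heart and smooth muscle, reached 1 FPKM in only 4 mice, among them WT replicate 3 (1.62 FPKM) and Plod1-/- replicate 1 (2.60 FPKM) of the saline-treated groups. These 2 mice also had the highest sums of 5 cardiac markers, 88.3 and 155 FPKM, where the other saline-treated mice had 10.1 to 19.3 FPKM. The infused Plod1-/- replicate 5, with 2.18 FPKM of Casq2, had a cardiac sum of 48.8 FPKM. The remaining mouse, infused WT replicate 5, had 1.06 FPKM of Casq2 but the lowest cardiac sum of its group, 8.29 FPKM. Its skeletal muscle markers summed to 274 FPKM. The part of cardiac or skeletal muscle RNA in the Casq2 values was not tested.

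Sorted by the calls, 7 members were lower under Ang II in both genotypes. They were the phosphatase subunits Ppp1r12a and Ppp1r12b, Hspb6, Cnn1, Tagln, Pgm5 and Rgs5, where 0.741% of the 11744 genes tested in all 3 fits fell in this class. Another 8 members were called lower in Plod1-/- mice and not in WT mice, with a negative difference between the responses, where 3.11% of genes were. These were the motor genes Myh11 and Myl9, the kinase Mylk, the thin filament genes Lmod1 and Smtn, the anchors Csrp1 and Pdlim3, and Jph2. Of these Myh11 and Pdlim3 were lower in WT mice too at the adjusted p-value (0.0265 and 0.0364) and missed the fold threshold there, so the class does not mean that nothing was lost in WT mice. A further 11 members were called lower in Plod1-/- mice without a called difference (1.82% of genes), so that a loss confined to Plod1-/- mice was not shown for them. No member was lower in WT mice only with a called difference (0.681% of genes). Actg2 was called lower in WT mice without a called difference (0.656% of genes), and Cnn2, Des, Synm, Map1b, Mustn1 and Rgs4 in neither.

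Tested directly, the Ang II response was more negative in Plod1-/- mice for 10 of the 33 members, the 8 named and Ppp1r12b and Pgm5, where 6.36% of all 13263 genes were, and more positive for 0, where 9.69% of genes were. The median difference was -0.65 over the members and 0.12 over all genes. Among all genes quantile normalization moved these calls from 844 negative and 1285 positive to 1095 and 1020. Hspb6 and Rgs5 stayed in the class lost in both genotypes in all 30 alternative settings, Ppp1r12b in 28, Ppp1r12a in 26, Pgm5 in 23, Cnn1 in 21 and Tagln in 11. In WT mice Cnn1, Tagln and Pgm5 lay just inside the fold threshold and Map1b just outside it. The called differences of the responses of Ppp1r12b and Pgm5 were less stable than their class, each kept in 14 of 29 alternative settings. Lmod1, Smtn and Jph2 stayed in the class called in Plod1-/- mice only in all 30, Csrp1 in 29 and Mylk in 27, while Myh11 and Pdlim3 stayed in 14 and Myl9 in 13. Without WT replicate 4 the classes held 18 and 4 members, and without Plod1-/- replicate 1 they held 8 and 14. Without WT replicate 1 they held 2 and 11. The shares of all genes in these classes are not given for the runs without 1 mouse.

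**Figure D5:**
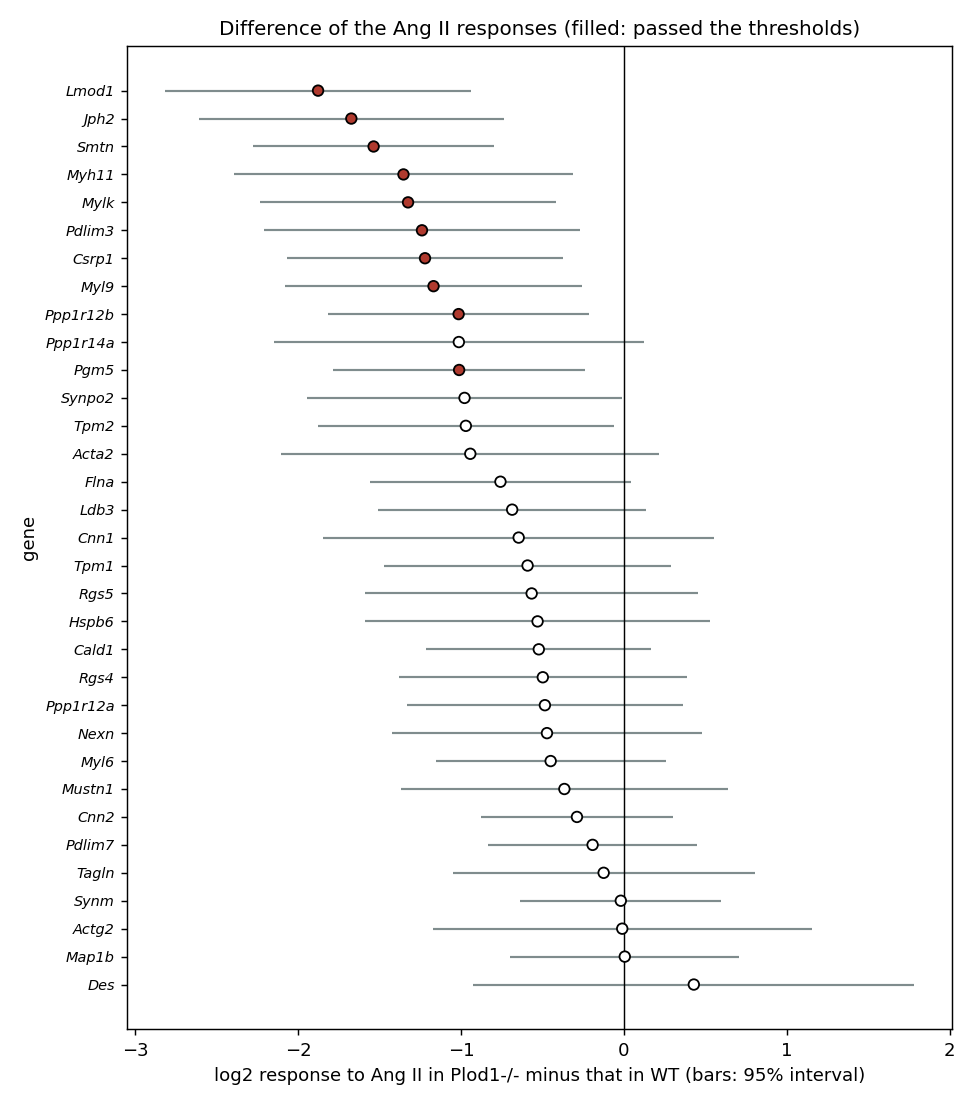
Points are the difference between the log2 response to Ang II in Plod1-/- mice and that in WT mice for each of the 33 tested members, sorted by size, with 95% intervals as bars and filled points for those past both thresholds. The 10 filled points run from -1.88 for Lmod1 to -1.01 for Pgm5, and the interval of Ppp1r14a, between them, crosses 0.

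Compared directly under Ang II, 3 members were lower in Plod1-/- than in WT mice, Lmod1, Smtn and Pgm5, and none was higher, where 3.67% of all 12356 genes were called lower and 7.45% higher. The median log2 difference was -0.62 over the members and 0.12 over all genes. For Lmod1 and Smtn the groups overlapped only in WT replicate 1 and Plod1-/- replicate 1. With Plod1-/- replicate 1 left out, which is the Xist-positive library of this comparison, 15 members were called lower, and without Plod1-/- replicate 4 only 1 was. How the calls over all genes moved in these 2 runs is not given. Among all genes quantile normalization moved the calls from 453 lower and 920 higher to 612 lower and 744 higher.

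In Plod1-/- replicate 1 the members were kept to different degrees. Relative to the mean of the saline-treated Plod1-/- mice, this mouse held 92.9% of Acta2, 128% of Cnn1, 106% of Hspb6, 170.2% of Actg2 and 384% of Des. For Lmod1 it held 38.5%, for Pgm5 32.4%, for Mylk 44.3%, for Smtn 51.9% and for Myh11 60.2%. The median log2 difference from saline-treated WT mice was 0.03 over its 10 thin filament genes and -0.88 over its 5 switch genes. WT replicate 4 held 102% of Acta2, 126% of Lmod1, 104% of Smtn and 129% of Mylk relative to saline-treated WT mice, and its lowest members were Tagln (51.8%) and Des (53.1%).

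Set against Acta2 in the same mouse, 4 of the other 34 members had a higher ratio in every infused than in every saline-treated Plod1-/- mouse and 0 a lower one, while in WT mice Csrp1 alone had a higher one and 0 a lower one. Cnn1 stood at 54.7 to 78.5 per 1000 Acta2 FPKM in infused and 53.9 to 60.96 in saline-treated Plod1-/- mice, which overlap. Mustn1 stood at 32.4 to 49.2 per 1000 in infused and 15.2 to 23.1 in saline-treated Plod1-/- mice, Cnn2 at 16.4 to 66.4 against 12.03 to 14.8, Des at 6.17 to 15.9 against 2.34 to 5.57, and Actg2 at 21.8 to 35.2 against 13.3 to 20.4. In WT mice Cnn2 stood at 12.1 to 24.3 in infused and 9.51 to 13.1 in saline-treated mice, and Des at 2.29 to 6.16 and 3.39 to 4.98, which overlap. Lmod1 stood at 10.3 to 30.6 per 1000 in infused and 20.2 to 30.99 in saline-treated Plod1-/- mice, which overlap, and at 24.2 to 35.6 in infused WT mice. Mean Acta2 under Ang II was itself at 58.7% of saline in WT and 36.7% in Plod1-/- mice, so that a gene that fell less has a higher ratio. The share of all genes with such a separation of ratios was not computed. These ratios are a description with no test, and the counts show nothing particular to the genes named.

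Beyond the members, 74 other genes of the pathway were followed, from lists of other filament genes, regulators of myosin phosphorylation, calcium handling, transcriptional control and membrane attachment. In WT mice 11 of 69 tested genes were called lower, where 2.28% of all genes were, and in Plod1-/- mice 15 of 67 were called lower and 2 higher, where 5.51% and 8.38% of all genes were. The largest falls in WT mice were those of Itga5, the α5 integrin that binds fibronectin, with a log2 fold change of -1.84 (SE 0.19, adjusted p = 0.00181), Vcl, vinculin, which links integrins to actin, with -1.62 (SE 0.33, adjusted p = 0.00512), and Itga8, the α8 integrin, with -1.24 (SE 0.30, adjusted p = 0.0106). In Plod1-/- mice the largest falls were those of Sgca, a sarcoglycan of the membrane complex, with -2.33 (SE 0.37, adjusted p = 0.000647), Itga8, with -2.01 (SE 0.24, adjusted p = 0.000151), and Kcnmb1, the β1 subunit of the large calcium-activated potassium channel, with -1.87 (SE 0.42, adjusted p = 0.0047). Sgca was at 52.98, 43.9, 54.7, 48.4 and 44.4 FPKM in saline-treated and 19.8, 10.9, 13.3, 3.99 and 4.23 FPKM in infused Plod1-/- mice, with no overlap.

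The 2 genes called higher in Plod1-/- mice were the tropomyosins Tpm3 and Tpm4, whose products are abundant in non-muscle cells. Tpm4 had 85.2, 95.1, 98.5, 116 and 117 FPKM in saline-treated and 359, 148, 295, 297 and 267 FPKM in infused Plod1-/- mice, all infused mice being above all saline-treated ones, and a log2 fold change of 1.36 (SE 0.22, adjusted p = 0.000782). In WT mice it had 168, 158, 123, 149 and 97.3 FPKM under saline and 125, 71.04, 68.2, 93.5 and 80.8 FPKM under Ang II, and its log2 fold change of -0.67 (SE 0.20, adjusted p = 0.0229) was not called. Tpm3 had 24.7, 26.4, 26.9, 25.1 and 22.9 FPKM and 52.4, 58.8, 83.98, 80.7 and 60.1 FPKM in the same Plod1-/- groups, again without overlap, and a log2 fold change of 1.36 (SE 0.14, adjusted p = 6.51e-05). Between the infused genotypes Tpm4 (1.61), Tpm3 (1.23), Itga5 (1.100) and Actg1, the cytoplasmic γ-actin (1.08), were called higher in Plod1-/- mice and Sgca (-1.41) lower, 4 and 1 of 64 tested genes where 7.45% and 3.67% of all genes were. The responses differed between genotypes in 9 of 69 tested genes of the lists, where 9.69% of all genes were more positive and 6.36% more negative, so that the lists' counts lie near those of all genes. Of these 6 were more positive in Plod1-/- mice, Tpm4, Tpm3, Itga5, Actg1, Vcl and the non-muscle myosin Myh9, and 3 were more negative, Sgca, the receptor Notch3 and the transcription factor Foxo4. None of the 69 tested genes of the lists was called in either direction between the genotypes under saline.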

How the data were processed

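RNA of 20 abdominal aortas was sequenced on unstranded libraries. The authors removed reads of ribosomal RNA, aligned the rest with HISAT2, assembled transcripts with StringTie and scaled the samples with cuffquant and cuffnorm, and they deposited 1 FPKM value per gene and mouse. The submitters' processing notes list mm10, Bowtie2 2.2.3, HISAT2 2.1.0 and HTSeq 0.6.0. Since the analysis starts from FPKM, library depth is unknown and counting intervals are not given. The summed FPKM was 344207 to 437790 per mouse.

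From these values log2(FPKM + 1) was fitted with limma 3.58.1 (empirical Bayes with a variance trend, in R 4.3.3), for genes at 1 FPKM or more in at least 5 mice of the fit. The 4 pairwise comparisons each used 10 mice and the interaction used all 20. Pln and Casq2 were tested by two-sided exact permutation of the mice. Each group holds 5 mice labelled as separate animals. In data simulated with 200 changed genes, a log2 change of 1.5 was found in 193 genes for the response in WT mice (12070 genes run) and in 181 for the interaction (12808 genes run). All simulated mice were given the spread of the saline-treated WT mice. The real infused groups could be more spread. The SD of Acta2 was 16.0% of its mean in saline-treated WT, 44.7% in infused WT and 88.4% in infused Plod1-/- mice. For such genes the simulated counts overstate what could be found here. Alternatives changed the pseudocount, filter, normalization, weights, variance model, samples fitted and mice left out. Values were arranged and plotted with Python 3.11.15, pandas 2.3.3 and matplotlib 3.10.9.

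The members, gene lists and tests were chosen with earlier results of these data known. All 35 members are named. Of 74 other pathway genes, the 3 with the largest decrease and the 3 with the largest increase among those called are named per comparison under Ang II. One result of these lists in WT mice is not reported here. Actg1, Myh9, Vcl, Notch3 and Foxo4 are also named for other results, after their values were seen.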

Additional observations from a re-analysis of the deposited data

Results flagged for a closer look

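In 24 of 140 groups of 5 values tested, 1 mouse stood apart from the other 4 by more than Dixon's 95% critical value of the gap over the range. About 7 would arise by chance if the 140 groups were independent. They are not, since the 35 genes were measured in the same mice and 1 mouse can be flagged in many genes. The gap and range were taken on FPKM, not on the log2 scale. The highest mouse of the infused Plod1-/- group, replicate 1 each time, stood apart in 15 genes. These were, with its FPKM, Myh11 (801), Ppp1r12b (29.0), Hspb6 (157), Acta2 (14456), Actg2 (455), Tpm1 (286), Tpm2 (901), Cald1 (81.5), Cnn1 (1135), Tagln (12.2), Smtn (208), Des (229.6), Flna (911), Nexn (45.3) and Pdlim7 (157). The highest infused WT mouse, replicate 4 each time, stood apart in Cnn2 (173), Rgs4 (47.1) and Rgs5 (362).

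Among saline-treated mice, the lowest WT mouse stood apart in Smtn (278), Flna (1113) and Rgs5 (271) and the highest WT mouse in Casq2 (1.62) FPKM. The highest saline-treated Plod1-/- mouse stood apart in Pln (1.61) and Casq2 (2.60) FPKM.

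The response to Ang II differed between the genotypes by the test of the interaction in 10 members. On the log2 scale the differences, Plod1-/- minus WT, were -1.35 for Myh11, -1.17 for Myl9, -1.32 for Mylk, -1.01 for Ppp1r12b, -1.88 for Lmod1, -1.54 for Smtn, -1.01 for Pgm5, -1.24 for Pdlim3, -1.22 for Csrp1 and -1.67 for Jph2.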

How the results depend on the processing

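No called member changed sign in any alternative run. Of 165 member values over the 5 comparisons 23 changed sign, none of them called, and all between the genotypes or in the interaction. The 8 members called lower under Ang II in WT mice became 5 with mitochondrial genes left out, 14 with a weight per mouse and 24 by adjusted p alone, and 2 to 20 without 1 mouse. The 3 lower in Plod1-/- than in WT mice under Ang II became 1 without the filter, 14 with weights, 5 with all 4 groups in one fit and 15 with both Xist-positive libraries left out, and 1 to 15 without 1 mouse. The 1 higher under saline became 0 without the filter, in one fit and without the Xist-positive libraries, and 0 to 1 without 1 mouse. The 10 with a more negative response in Plod1-/- mice became 3 without the filter and 16 without the Xist-positive libraries, and 5 to 16 without 1 mouse. The 7 lost in both genotypes became 3 without the filter, 13 with weights and 20 by adjusted p alone, and 2 to 18 without 1 mouse. The 8 called lower in Plod1-/- mice only became 3 without the filter and 13 without the Xist-positive libraries, and 4 to 14 without 1 mouse. The 26 lower in Plod1-/- mice stayed within 1.5 times that count in every alternative run. The low counts for WT mice came without infused WT replicate 1 (2), 2 (4) or 5 (4) and the high one without replicate 4 (20). Infused Plod1-/- replicate 1 gave the high counts of 15, 16 and 14 when left out. The interaction count fell to 5 or 6 without any one of saline-treated WT replicates 2, 4 and 5, infused WT 3 and 4, saline-treated Plod1-/- 1, 3, 4 and 5 and infused Plod1-/- 3, 4 and 5. For most of these runs the counts over all genes are not given, so that a shift particular to the members is not shown. The cause of these shifts was not tested.

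The labels do not state that replicate numbers pair the mice. Deviations of same-numbered mice correlated between -0.33 and 0.42, and some mice but not all correlated best with their own number. With so few mice this cannot exclude a pairing. With a replicate block the count under Ang II between genotypes was 1, that of the interaction 5 and that of the genes called lower in Plod1-/- mice only 5. Among all genes that were called in either direction, quantile normalization moved the share called lower from 32.99% to 45.1% between the infused genotypes. For the interaction it moved that share from 39.6% to 51.8%. With no depth given, values near 1 FPKM are limited by an unknown number of reads.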
